A study of Rattus norvegicus with 102 samples.

Results

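The nuclear genes of the respiratory chain were followed through CA1, CA3 and the dentate gyrus (DG) of the rat hippocampus. Members were the protein-coding genes off the mitochondrial chromosome whose symbol began with Nduf, Sdha, Sdhb, Sdhc, Sdhd, Uqcr, Cox4, Cox5, Cox6, Cox7, Cox8 or Atp5, and 90 of the 26284 genes of the Illumina table (26341 in the Ion Proton table) met this rule. A total of 79 encode subunits, of which 35 belong to complex I, 4 to complex II, 6 to complex III, 18 to complex IV and 16 to complex V, and 11 are assembly or other factors that share the prefix. RNA came from 34 male Fischer 344 rats (spelled Fisher 344 in the labels), with 1 piece of each subfield per rat. The groups were young rats of 5 to 6 months (n = 10) and aged rats of 17 to 22 months that a water maze had classed as unimpaired (n = 12) or impaired (n = 12). The rats had been trained in the maze before the tissue was taken, and the labels name no transgene or drug. Poly-A RNA of each piece was read by 2 sequencers, an Illumina and an Ion Proton, and a further table that the submitters named WT served as an alternative.

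The respiratory chain carries electrons from NADH (complex I) and succinate (complex II) through complex III to oxygen at complex IV, and the proton gradient this builds drives ATP synthesis by complex V. Most subunits are encoded in the nucleus and imported, while a small set at the core of complexes I, III, IV and V is encoded by the mitochondrial chromosome. Neurons spend much of their ATP on ion pumping and transmitter release, and nuclear respiratory genes as a class are known for shared promoter elements that bind NRF1, GABP of the ETS family and YY1.

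Promoters were taken for the members that differed between subfields on both sequencers, since their mRNA levels carry the differences described below. RefSeq (build GRCr8) gave 300 bases, from 250 before to 50 after the start, for 72 of the 90 members, 57 matched by symbol and 15 by synonym. Capitals mark matches to the motifs of NRF1 (GCGCA, then any base, then GCGC), ETS factors (CCGGAAGT), YY1 (AAGATGGC) or CREB (TGACGTCA) on either strand. The windows lie at chr9:100489215-100489514 (minus strand) for Ndufa10, chr1:161122940-161123239 (plus) for Ndufc2, chr20:9613536-9613835 (plus) for Ndufv3 and chr1:30764303-30764602 (plus) for Sdha. These coordinates belong to GRCr8 and not to rn5, the build the reads were aligned to.
Ndufa10: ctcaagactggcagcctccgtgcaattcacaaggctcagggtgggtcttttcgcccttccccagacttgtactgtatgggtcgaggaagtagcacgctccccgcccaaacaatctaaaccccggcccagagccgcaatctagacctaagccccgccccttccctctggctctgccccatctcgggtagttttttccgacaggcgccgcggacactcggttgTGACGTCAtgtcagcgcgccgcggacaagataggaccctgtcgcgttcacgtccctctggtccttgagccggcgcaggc
Ndufc2: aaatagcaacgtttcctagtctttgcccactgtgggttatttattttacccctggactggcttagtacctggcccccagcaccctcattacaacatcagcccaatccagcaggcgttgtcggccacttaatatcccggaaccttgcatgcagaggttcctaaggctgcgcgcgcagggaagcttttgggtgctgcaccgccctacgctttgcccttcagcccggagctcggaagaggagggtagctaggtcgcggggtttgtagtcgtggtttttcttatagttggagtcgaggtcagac
Ndufv3: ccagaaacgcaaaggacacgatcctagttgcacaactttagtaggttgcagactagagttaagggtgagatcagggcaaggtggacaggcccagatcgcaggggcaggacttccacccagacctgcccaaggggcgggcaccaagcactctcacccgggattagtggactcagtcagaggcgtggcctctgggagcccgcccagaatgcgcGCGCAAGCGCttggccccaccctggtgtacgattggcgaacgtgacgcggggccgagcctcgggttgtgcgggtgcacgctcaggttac
Sdha: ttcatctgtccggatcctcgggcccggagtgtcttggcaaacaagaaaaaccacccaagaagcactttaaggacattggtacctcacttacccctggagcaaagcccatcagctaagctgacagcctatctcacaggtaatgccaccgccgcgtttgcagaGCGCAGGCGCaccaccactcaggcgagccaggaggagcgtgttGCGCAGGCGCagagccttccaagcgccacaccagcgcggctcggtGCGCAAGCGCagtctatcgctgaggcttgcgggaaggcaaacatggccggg
Sdha had 3 NRF1 matches, which do not overlap each other, Ndufv3 had 1 NRF1 match and Ndufa10 had 1 CREB match, while the Ndufc2 window held none of the capitalised motifs. Across the members, the NRF1 motif was in 18.1% of the promoters (13 of 72) and in 4.71% of all 27457 RefSeq rat promoters of this length. The shares for members and for all promoters were 19.4% and 3.44% for YY1, 9.72% and 4.01% for ETS, 5.56% and 1.91% for CREB, 2.78% and 0.412% for the ERR motif TCAAGGTCA, and 44.4% and 34.9% for the short SP1 motif GGGCGG. NRF1 matches were found in 4 of 27 complex I, 1 of 4 complex II and 1 of 5 complex III promoters. They were found in 0 of 13 complex IV and 5 of 14 complex V promoters. Differences between complexes were not tested. All matches are of letters only, and binding was not measured.

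Illumina libraries held 3.25 to 42.8 M reads on genes (median 10.7 M), Ion Proton libraries 4.47 to 21.4 M and WT libraries 3.54 to 20.6 M. Markers of dentate granule cells were highest in DG and those of CA1 pyramidal cells highest in CA1. The summed markers of CA3 pyramidal cells had a median of 14221 normalised reads in CA3 and 13584 in DG. Of the 10 tested, 5 were higher and 5 lower in CA3 than in DG on the Illumina. With a limma adjusted p-value under 0.05 in both poly-A tables, 0 were higher and 3 lower (14.1% and 14.3% of all genes). The list thus did not set CA3 apart from DG, and the assignment to a nearest subfield below used it too. On both sequencers, 8 libraries from 7 rats (1 labelled CA1, 4 CA3 and 3 DG) had marker levels nearest to another subfield than their label, and 6 of these rats had numbers from 9000 up. The rats fell into a number series below 9000 (18 rats) and one from 9000 up (16 rats). In 7 rats every Illumina library held over 25 M reads. Levels below are normalised reads of the Illumina table unless another is named, and a log2 change compares log2(normalised reads + 1).

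Nuclear respiratory mRNA took 0.490% to 1.18% of the reads of an Illumina library (median 0.923%), 0.638% to 1.24% in the Ion Proton table and 0.743% to 1.06% in the WT table. In bulk tissue a lower value can come from fewer cells of a type or from less RNA per cell, and these cannot be told apart. Of the 90 members, 82 passed the filter of a mean of at least 10 in the Illumina table and 86 in the Ion Proton table. Reads of different genes were not scaled by transcript length, so levels are compared within a gene only.

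The members under the filter in the Illumina table were Cox8b, Cox6a2, Cox8c, Ndufb4l1, Atp5f1, Sdhaf1, Ndufa13 of chromosome 7 and Ndufs5 of chromosome 14. Cox6a2 and Cox8b, the isoforms of complex IV known from heart and skeletal muscle, had means of 5.18 and 5.15 normalised reads and reached 32.6 and 67.3 in single libraries. Cox8c, an isoform known from testis, had 4 reads in all Illumina libraries together and 2 in all Ion Proton libraries. Atp5f1, which encodes the b subunit of the ATP synthase stalk, and Sdhaf1, an assembly factor of complex II, stood at 1.82 and 0.0121 normalised reads in the Illumina table but at 371 and 36.1 in the Ion Proton table.

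Levels on the sequencers lay far apart for a few members, among them genes listed under 2 identifiers or with a close copy. Tables were normalised separately, so the levels set side by side here were not tested. In 7 of the 90 members the means were over 8 times apart, 6 of them higher in the Ion Proton table, while 63 of the 82 tested members were within 2 times. Cox7a2, a subunit of complex IV, is listed under an identifier on chromosome 8 with means of 604 on the Illumina and 50.9 on the Ion Proton, and under another on chromosome 14 with 40.8 and 1499. Ndufa13, a complex I subunit, is likewise listed on chromosomes 16 and 7, and the entry of chromosome 7 had means of 3.30 and 859. Ndufs5 of chromosome 14 had 1.26 and 38.3, and Atp5hl1, a copy of the stalk gene Atp5h, had 13.5 and 166. How the tables divided reads between such copies was not tested, and values of these genes are uncertain.

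**Figure D1:**
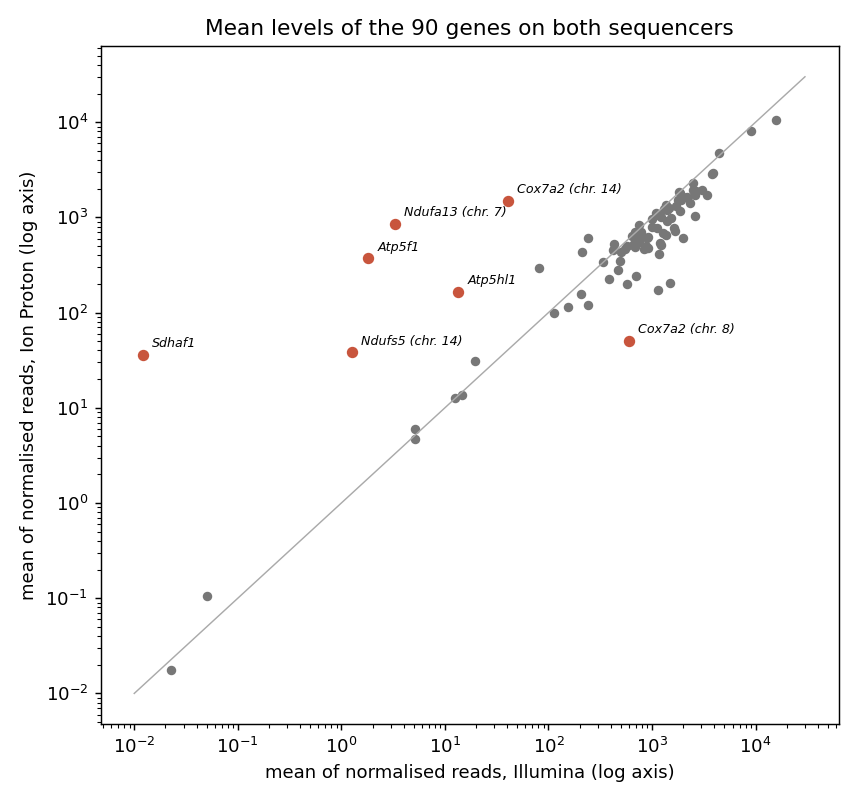
Mean normalised reads of the 90 genes over all libraries in the Illumina table (x axis, log) and in the Ion Proton table (y axis, log), with the line of equal values. Red points with names are the 7 genes whose means were over 8 times apart, 6 above the line and Cox7a2 of chromosome 8 below it.

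The isoform pairs of complex IV are given gene by gene. Cox4i1, the general isoform of subunit 4, ranged from 3831 to 5827 in CA1 (median 4455), from 2297 to 5220 in CA3 (median 4721) and from 3887 to 5387 in DG (median 4248). Cox4i2, an isoform known for its induction under low oxygen, ranged from 12.0 to 42.0 in CA1 (median 22.2), from 5.18 to 46.9 in CA3 (median 16.8) and from 7.36 to 33.2 in DG (median 19.3). The ranges of Cox4i2 overlapped in all subfields, and its SD over libraries (0.56 on the log2 scale) was the largest of the 82 members. Cox6b2, known from testis, had 7.51 to 26.3 reads in CA1 libraries, 4.02 to 23.7 in those of CA3 and 4.58 to 24.1 in those of DG, and its partner Cox6b1 had medians of 583, 599 and 549. Ndufa4l2, a paralogue of the complex IV subunit Ndufa4 known for induction under low oxygen, had medians of 16.0, 13.0 and 11.0. Of the genes for the c subunit of complex V, Atp5g1 had a median of 1195 in CA1, 1354 in CA3 and 1136 in DG.

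The first comparison asked which members differed between subfields regardless of age or maze class. A member was called when its limma adjusted p-value was under 0.05 in both poly-A tables with 1 direction. For CA1 against CA3, 1 of 82 members was called, and it was lower in CA1. Of all 13907 genes 14.4% were called, 7.26% higher and 7.09% lower. For CA1 against DG, 4 of 82 members were called (2 higher in CA1 and 2 lower), with 26.9% of all genes called (13.4% and 13.5%). For CA3 against DG, 2 of 82 members were called (1 higher in CA3 and 1 lower), with 28.5% of all genes called (14.1% and 14.3%). Of the genes described here, Ndufa10, Ndufc2 and Ndufv3 encode parts of complex I and Sdha belongs to complex II. With the libraries nearest to another subfield left out, 5, 4 and 4 members were called in the 3 comparisons. The shares of all genes called there were 16.6%, 28.6% and 31.6%.

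Ndufa10 (ENSRNOG00000016470, chromosome 9), an accessory subunit of the membrane side of complex I, was lower in CA1 than in both other subfields. Its normalised reads ranged from 988 to 1366 in CA1 (median 1121), from 841 to 1521 in CA3 (median 1269) and from 1083 to 1470.5 in DG (median 1219). The ranges overlapped, and in 7 of 34 rats the CA1 library lay above the CA3 library of the same rat. The log2 change between CA1 and CA3 was −0.16 (SE 0.03, fold 0.897, limma adjusted p = 0.000148) on the Illumina and −0.24 (limma adjusted p = 0.00786) on the Ion Proton. Against DG it was −0.12 (limma adjusted p = 0.00192) and −0.20 (limma adjusted p = 0.0193), with CA1 above DG in 8 of 34 rats. RefSeq lists a copy of this gene under the symbol Ndufa10l1, and reads from it cannot be told apart here. In the WT table the changes were −0.16 and −0.14. Within the number series below 9000 the change against CA3 was −0.26 (limma adjusted p = 5.62e-09) and within that from 9000 up it was −0.03 (limma adjusted p = 0.652), whereas against DG the values were −0.08 and −0.17 (limma adjusted p = 0.0545 and 0.00186).

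Ndufv3 (ENSRNOG00000001182, chromosome 20), a small subunit of the NADH-binding part of complex I, was higher in DG than in both other subfields. It ranged from 351 to 488 in CA1 (median 424), from 276 to 482 in CA3 (median 418) and from 403 to 507 in DG (median 443). All ranges overlapped, though the lowest DG library lay above the lowest of CA1 and CA3, and the CA3 library exceeded that of DG in 8 of 34 rats. CA1 less DG was −0.08 (SE 0.03, limma adjusted p = 0.0192) and −0.24 on the Ion Proton (limma adjusted p = 0.00649), and CA3 less DG was −0.11 (limma adjusted p = 0.00138) and −0.26 (limma adjusted p = 0.00253). In the WT table CA3 less DG was −0.02 (limma adjusted p = 0.739), so that the call was lost with that table. Within the number series below 9000 and from 9000 up, CA1 less DG was −0.05 and −0.11 (limma adjusted p = 0.241 and 0.0697), and CA3 less DG was −0.13 and −0.08 (limma adjusted p = 0.000808 and 0.183). Neither call of Ndufv3 in both poly-A tables held within either series. That of CA1 against DG was also lost without the 7 deeply sequenced rats, while with WT reads the change was −0.08 (limma adjusted p = 0.0441). A gene listed as Ndufv3-ps1 may take reads of Ndufv3.

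Ndufc2 (ENSRNOG00000012383, chromosome 1), an accessory subunit in the membrane arm of complex I, was higher in CA1 than in DG. Its normalised reads ranged from 566 to 1138 in CA1 (median 765), from 374 to 892 in CA3 (median 746) and from 564 to 834 in DG (median 688). CA1 exceeded DG in 27 of 34 rats, and the ranges overlapped. The log2 change was 0.18 (SE 0.04, fold 1.13, limma adjusted p = 0.000203) and 0.17 on the Ion Proton (limma adjusted p = 0.0137). It was 0.27 (limma adjusted p = 5.17e-07) in the rats numbered below 9000 and 0.08 (limma adjusted p = 0.383) in those from 9000 up. With WT reads it was 0.10 (limma adjusted p = 0.0519), and the call was lost there and from 9000 up.

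Sdha (ENSRNOG00000013331, chromosome 1), the flavoprotein of succinate dehydrogenase, which is complex II of the chain and an enzyme of the citric acid cycle, was higher in CA3 than in DG. Its normalised reads ranged from 3338 to 4790 in CA1 (median 3761), from 2853 to 4527 in CA3 (median 4077) and from 3298 to 4175 in DG (median 3698). The CA3 library lay above that of DG in 31 of 34 rats, although the ranges overlapped. The log2 change was 0.11 (SE 0.03, fold 1.08, limma adjusted p = 0.000518) and 0.19 on the Ion Proton (limma adjusted p = 0.00564), and 0.09 in the WT table. On the Illumina it was 0.18 (limma adjusted p = 6.03e-07) below 9000 and 0.02 (limma adjusted p = 0.658) from 9000 up. The call in both poly-A tables was lost within each series, below 9000 on the Ion Proton.

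**Figure D2:**
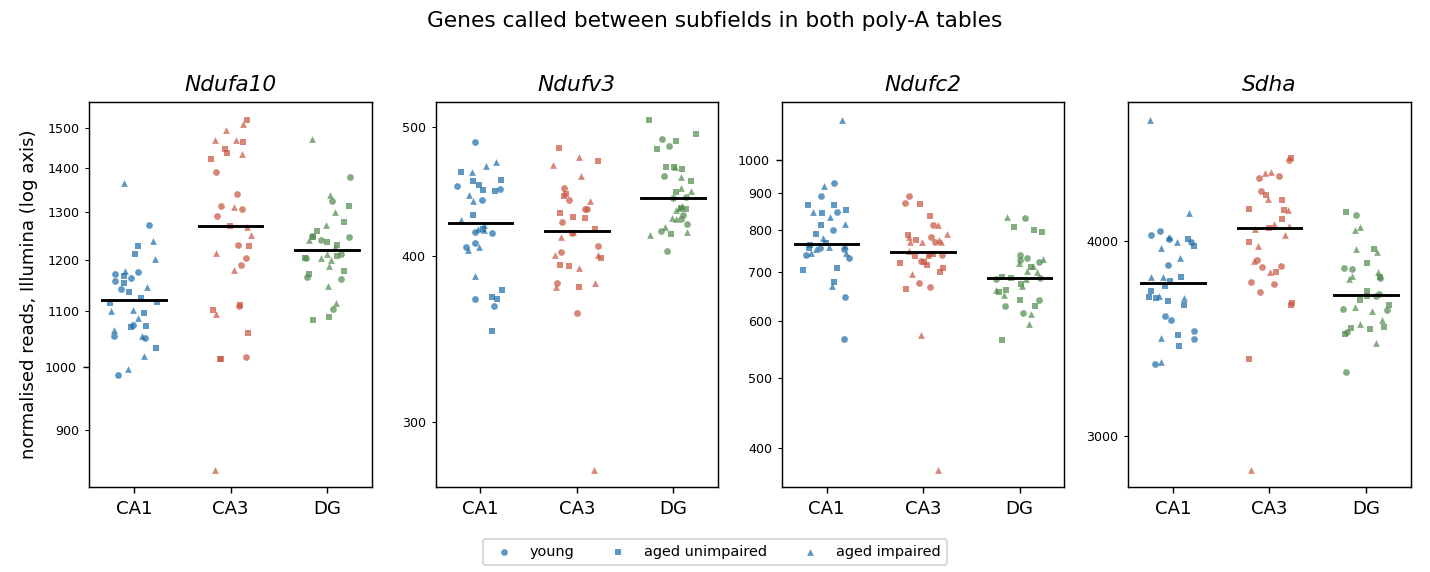
Normalised reads in the Illumina table (log axis) of 4 genes called between subfields, for each of the 34 libraries of CA1, CA3 and DG, with marks by age and maze class and a bar at each median. Medians of Ndufa10 are 1121, 1269 and 1219 and those of Sdha 3761, 4077 and 3698, and the ranges of the subfields overlap for every gene.

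More members passed in a single table than in both. With the limma adjusted p-value under 0.05 on the Illumina only, 13 members passed for CA1 against CA3, 2 of them above and 11 below 0 (35.4% of all genes, 18.3% above and 17.1% below). For CA1 against DG 20 members passed, 14 above and 6 below 0 (55.6% of all genes, 29.0% above and 26.7% below). This split moved with the samples and the table. It was 27 above and 0 below 0 in the rats below 9000 (52.5% of all genes passing). It was 1 above and 6 below from 9000 up (36.3%), and 6 above and 7 below with WT reads (45.9%). For CA3 against DG 29 members passed, 25 above and 4 below 0 (55.6% of all genes, 28.9% above and 26.7% below). This split was 48 above and 5 below in the rats below 9000 (62% of all genes). From 9000 up it was 2 above and 4 below (39.7%). The Ion Proton alone gave 4 (15.8% of all genes), 18 (30.2%) and 3 (30.1%) of 86 members. These were 0 above and 4 below 0, 4 above and 14 below, and 1 above and 2 below. For CA1 against DG the Illumina median over members was 0.03 with 54 of 82 above 0, and that of the Ion Proton was −0.05 with 34 of 86 above 0.

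Between CA1 and CA3, most of the members that passed on the Illumina were lower in CA1. The median log2 change of the 82 members was −0.03, with 30 above and 52 below 0, beside 0.01 over all genes. By complex the medians were −0.02 for I, −0.01 for II, −0.04 for III, −0.01 for IV and −0.06 for V. With a limma adjusted p-value under 0.05, 17.1% of all genes were lower in CA1. In complex V, 4 of 15 members were lower in CA1 with a limma adjusted p-value under 0.05, namely Atp5d (−0.14), the δ subunit of the rotor, Atp5b (−0.09), the catalytic β subunit, and the c subunit genes Atp5g1 (−0.12) and Atp5g3 (−0.11). Complex I had 3 of 32, the core subunits Ndufs1 (−0.13) and Ndufv1 (−0.09), which carry electrons in from NADH, and Ndufa10. Cox4i2 (0.41) and Cox6b2 (0.33) were the members higher in CA1, both at low levels and both without a call on the Ion Proton (limma adjusted p = 0.721 and 0.188). Of the 12 catalytic or cofactor-bearing subunits, 11 lay below 0 and 4 passed on the Illumina.

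The count for CA1 against CA3 depended on single libraries and on the test. Without the CA3 library of aged impaired rat R9875, 6 members were called in both tables, all lower in CA1 (15.5% of all genes in either direction), and on the Illumina alone 37 in place of 13 passed (38.8% of all genes). Without the CA1 and CA3 libraries of aged impaired rat R1931 the count was 4 (15.1% of all genes). The quasi-likelihood test of edgeR and DESeq2 on the recovered reads each called 6 (15.5% and 16.6% of all genes). A replicate block on the rat called 2 (16.1%), which added Atp5a1, the catalytic α subunit. With limma 0 members were called in the rats from 9000 up (3.95%), where 4 had an unadjusted p-value under 0.05 on the Illumina. Ndufa10 was called under 12 of 13 alternatives.

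Complex IV gave the largest median between CA1 and DG on the Illumina, and the Ion Proton did not follow it. The Illumina medians were 0.03 for complex I, 0.02 for II, 0.02 for III, 0.11 for IV and 0.01 for V, and 13 of 15 complex IV members lay above 0. On the Ion Proton the complex IV median was −0.08, with 3 of 15 above 0. Higher in CA1 on the Illumina with a limma adjusted p-value under 0.05 were Ndufa4l2 (0.47), Cox6b2 (0.28), Cox7a2 of chromosome 14 (0.25), Cox8a (0.21), Cox6a1 (0.16) and Cox6c (0.12), while Cox5a (−0.07) was lower. Cox8a, the general isoform of subunit 8, ranged from 3035 to 4392 in CA1 (median 3557) and from 2644 to 4167 in DG (median 3025), with CA1 above DG in 31 of 34 rats on the Illumina and in 16 of 34 on the Ion Proton. Ndufb11, a membrane-arm subunit of complex I, passed on both sequencers in opposite directions, at 0.09 (limma adjusted p = 0.0445) and −0.19 (limma adjusted p = 0.0078). Cox5b, a subunit of complex IV, did the same for CA3 against DG, at 0.10 (limma adjusted p = 0.0464) and −0.39 (limma adjusted p = 0.0023).

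CA3 lay above DG for most members on the Illumina. The median log2 change was 0.07, with 64 of 82 members above 0, beside 0.01 over all genes, and complexes I to V had medians of 0.07, 0.04, 0.06, 0.10 and 0.10. On the Illumina 55.6% of all genes passed for this comparison. In complex V, 8 of 15 members passed, with Atp5g1 at 0.17, Atp5j, a stalk subunit, at 0.16 and Atp5b at 0.09. In complex IV, 7 of 15 passed, among them Cox6a1 at 0.19 and Cox8a at 0.15. Lower in CA3 were Ndufaf3 (−0.11) and Ndufaf4 (−0.09), which act together in complex I assembly, and Ndufs4 (−0.09), an accessory subunit, beside Ndufv3. On the Ion Proton 43 members were above and 43 below 0, and the median was −0.00. With WT reads, 20 of 78 members were higher and 2 lower in CA3 by a limma adjusted p-value under 0.05. This threshold was passed by 48.7% of all genes, and the median of the members was 0.04. Without the CA3 library of rat R9875, 53 of 82 members passed on the Illumina in place of 29 (58.5% of all genes). Without the CA1 and CA3 libraries of rat R1931, 5 members in place of 2 were called in both tables, among them Cox4i1. In that setting 32.1% of all genes were called.

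**Figure D3:**
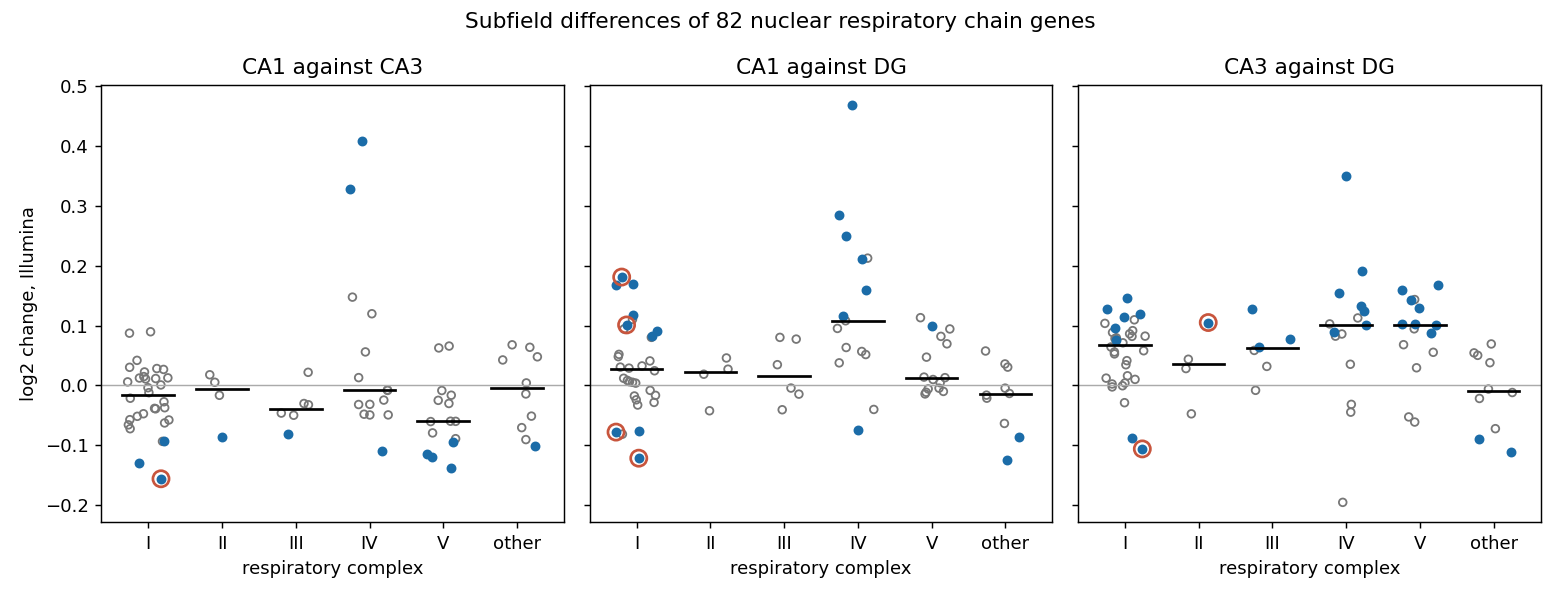
Log2 change of each of the 82 tested genes in the Illumina table, by respiratory complex, for the 3 pairs of subfields, with a bar at the median of a complex. Filled blue points had a limma adjusted p-value under 0.05 on the Illumina (13, 20 and 29 genes) and red rings mark the genes called on both sequencers (1, 4 and 2).

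Other mitochondrial genes were counted over lists, to be read against the 14.4%, 26.9% and 28.5% of all genes that were called in both tables in the 3 comparisons, in the order used above, and for counts on the Illumina alone against 35.4%, 55.6% and 55.6%. Of 15 genes of the citric acid cycle, 10 were lower in CA1 than in CA3 on the Illumina and 1 in both tables, 4 were lower in CA1 than in DG in both tables, and 1 was higher in CA3 than in DG in both. Of 31 assembly factors outside the prefixes, 4, 4 and 1 were called, all lower in the subfield named first. Of 19 regulators of mitochondrial biogenesis, 0 were called between CA1 and CA3 (7 had an unadjusted limma p-value under 0.05 on the Illumina), 4 for CA1 against DG (3 above and 1 below 0) and 5 for CA3 against DG (1 above and 4 below 0). The 13 mRNAs of the mitochondrial chromosome, listed at 0 in the Ion Proton table, were all higher in CA1 than in DG (median 0.31) and in CA3 than in DG (median 0.20) on the Illumina with limma adjusted p-values under 0.05, and 0 passed between CA1 and CA3, where 4 had an unadjusted p-value under 0.05. With WT reads 5 of 13 passed for CA1 against DG (median 0.17) and 0 of 13 for CA3 against DG (median 0.05, 1 with an unadjusted limma p-value under 0.05).

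Markers of cell types also differed between the subfields, against the same shares of all genes. General neuronal markers summed to a median of 97086 normalised reads in CA1 (74373 to 110167). Their medians were 121236 in CA3 (80619 to 156232) and 120021 in DG (100081 to 145115). Of these 12 markers, 9 were called lower and 1 higher in CA1 than in CA3, and 7 lower and 0 higher than in DG. Oligodendrocyte markers summed to medians of 136024, 164492 and 80444 (ranges 79748 to 308164, 58120 to 407460 and 47898 to 232761), and 10 of 10 were called higher in CA1 than in DG and 10 of 10 in CA3 than in DG. Microglial markers had 3 of 12 called higher in CA1 than in DG and 6 of 12 in CA3 than in DG, and endothelial markers 6 of 9 and 0 of 9. Their part in the differences of the respiratory genes was not tested.

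The next comparison asked whether respiratory mRNA changed with age within a subfield. On the Illumina 0 members passed at any step. In CA1, CA3 and DG, 0 of 82 members had a limma p-value under 0.01 on the Illumina (1.98%, 0.828% and 1.78% of all genes), 0 had one under 0.05 (6.15%, 3.31% and 5.2% of all genes) and 0 had an adjusted p-value under 0.05 (0.338%, 0.0% and 0.3%). The counts under 0.05 were also 0 in each subfield with edgeR and with DESeq2. With WT reads in place of Illumina reads they were 4, 2 and 0 of 78 members in CA1, CA3 and DG. Over all genes they were 921 of 13680, 531 of 13712 and 437 of 13542. Of the 4 in CA1, 1 was under 0.01 (254 of 13680 genes) and 0 passed the retest. For the Illumina, retesting on the Ion Proton therefore had no member to start from, while 0.851%, 0.402% and 1.09% of all genes passed it.

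The 95% intervals of the age changes were wider in CA3 than in CA1 and DG. The median SE of the aged less young change was 0.05, 0.08 and 0.04 in CA1, CA3 and DG. The interval lay within ±0.2 on the log2 scale for 74, 32 and 76 of 82 members. It lay within ±0.3 for 78, 72 and 77 members and within ±1 for all 82. Intervals this wide can hold changes as large as the subfield differences of the called members. Atp5b, the catalytic β subunit, ranged in CA1 from 13222 to 16676 in young rats (median 15651), from 13796 to 16138 in aged unimpaired (median 15300.3) and from 13204 to 19908 in aged impaired rats (median 15886), so that the groups overlapped and the highest values were those of aged impaired rats. Its change was 0.01 (SE 0.05) in CA1, −0.05 (SE 0.07) in CA3 and −0.00 (SE 0.03) in DG. Cox4i1 changed by 0.03, −0.02 and 0.01, Sdha by 0.02, −0.01 and 0.01, Ndufs1 by 0.01, −0.04 and −0.01 and Uqcrfs1, the Rieske iron-sulphur protein of complex III, by −0.03, −0.05 and 0.00, none with a limma p-value under 0.05.

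The members with the lowest p-values for age differed between subfields. In CA1 these were Atp5hl1 (−0.34, SE 0.21, limma p = 0.109) and Cox6b2 (0.23, SE 0.14, limma p = 0.116), both low in reads. Cox6b2 ranged from 7.51 to 24.2 in young rats and from 9.99 to 26.3 in aged rats, whose values overlapped almost fully. In CA3 Cox4i2 had 5.18 to 46.0 normalised reads in young rats (median 10.4), 7.11 to 46.9 in aged unimpaired (median 17.5) and 8.88 to 30.1 in aged impaired rats (median 17.7), with a change of 0.45 (SE 0.26, limma p = 0.0983) and 18 of 24 aged libraries above the young median. The Ion Proton gave −0.07 for it. In DG Ndufaf4 was at −0.08 (limma p = 0.0729) and Sdhd, the membrane anchor of complex II, at −0.05 (limma p = 0.0842).

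On the Illumina the medians over the members for age were 0.01 in CA1 (46 of 82 above 0), −0.05 in CA3 (8 of 82 above 0) and −0.01 in DG (28 of 82 above 0), beside −0.00, −0.01 and −0.00 over all genes. The CA3 median was −0.01 (29 of 82 above 0) without the CA3 library of rat R9875 and −0.00 in the WT table, while the Ion Proton gave −0.08 (19 of 86 above 0). The CA1 median was −0.02 in the WT table (19 of 78 above 0) and −0.07 on the Ion Proton (30 of 86 above 0), below 0 where that of the Illumina was above. In DG the Ion Proton median was 0.04 (50 of 86 above 0). For CA1, CA3 and DG the Ion Proton medians over all genes tested on both sequencers came to −0.04, −0.03 and −0.01. Within the number series the CA3 median was 0.01 below 9000 and −0.13 from 9000 up. On the Ion Proton 3 of 86 members in CA1, 4 in CA3 and 13 in DG had an unadjusted limma p-value under 0.05, beside 400 of 13868, 187 of 13942 and 1157 of 13728 genes. These genes were tested on both sequencers, as were 82 of the 86 members. Those of DG were 10 higher in aged rats, such as Ndufs7 (0.48, p = 0.00273), a core complex I subunit, and 3 lower, namely Cox6c (−0.55), Ndufa5 (−0.38) and Ndufaf1 (−0.28). The Illumina changes of these 13 lay between −0.05 and 0.04. Microglial markers had 3 of 12 higher with age in CA1, 0 of 12 in CA3 and 4 of 12 in DG by a limma adjusted p-value under 0.05, and in CA3 8 of 12 had an unadjusted one under 0.05. Their part in the values of the members was not tested.

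The last comparison set aged impaired against aged unimpaired rats. Here too 0 of 82 members had a limma p-value under 0.01 in CA1, CA3 or DG (1.46%, 0.162% and 0.5% of all genes), and 0 members and 0 genes of the whole table passed after limma adjustment. With no member to retest, the Ion Proton retest was passed by 0.635%, 0.0216% and 0.124% of all genes. An unadjusted p-value under 0.05 was seen for 3 members in CA1 (5.71% of all genes), 0 in CA3 (1.4%) and 1 in DG (3.85%), and edgeR and DESeq2 gave the same 3, 0 and 1. For CA1 the count was 7 of 82 with quantile normalisation (836 of 14205 genes) and 5 of 78 with WT reads (903 of 13696). In the rats from 9000 up it was 0 of 83 (792 of 14244).

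In CA1 the 3 members were higher in impaired rats on the Illumina. Uqcrc1, a core protein of complex III, ranged from 2042 to 2484 in unimpaired rats (median 2301) and from 2084 to 3112 in impaired rats (median 2517), with a change of 0.10 (SE 0.05, limma p = 0.048, adjusted p = 0.87). Ndufaf7, an assembly factor of complex I, ranged from 412 to 490.0 and from 400 to 677 (change 0.14, limma p = 0.029, adjusted p = 0.848). Atp5sl, which is no subunit of the synthase in spite of its symbol, ranged from 427 to 504 and from 420 to 650 (change 0.12, limma p = 0.0287, adjusted p = 0.846). In each the highest impaired libraries lay above every unimpaired library while the ranges overlapped, and 10 of 12 impaired libraries were above the unimpaired median. The Ion Proton gave 0.03, −0.03 and −0.21 for them (limma p = 0.75, 0.827 and 0.24). Without the libraries of aged impaired rat R1931, 1 member in place of 3 had an unadjusted p-value under 0.05 on the Illumina.

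In DG Ndufv3 ranged from 415 to 507 in unimpaired rats (median 466) and from 415 to 467 in impaired rats (median 434), and 1 of 12 impaired libraries was above the unimpaired median. Its change was −0.08 (SE 0.04, limma p = 0.0222, adjusted p = 0.999) and −0.03 on the Ion Proton (limma p = 0.797). In CA3 the lowest p-values belonged to Ndufs5 of chromosome 2 (−0.17, limma p = 0.213) and Ndufb2 (−0.14, limma p = 0.225), both accessory subunits of complex I.

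The medians over the members had different signs in the subfields, and in each subfield the sign changed with the table or the libraries used. In CA1 the median for impaired less unimpaired was 0.04 with 73 of 82 members above 0, with WT reads 0.05 with 71 of 78 and on the Ion Proton 0.01 with 48 of 86, while within the number series it was 0.08 below 9000 and −0.01 from 9000 up. Without the libraries of rat R1931 it was 0.01, with 50 of 82 above 0. In CA3 it was −0.07 with 15 of 82 above 0, but 0.02 with 55 of 82 without the CA3 library of rat R9875. In DG it was 0.02 on the Illumina and −0.04 in the WT table. The 95% intervals lay within ±0.2 for 60, 16 and 75 of 82 members in CA1, CA3 and DG, and within ±0.3 for 78, 50 and 77. In the tests of whether an age or maze effect differed between 2 subfields, 0 members passed after limma adjustment, and an unadjusted p-value under 0.05 was seen for 2 members, Ndufa7 (0.20) and Ndufaf5 (0.19), in the maze effect of CA1 less CA3 (4.56% of all genes), which was 0 members without the CA3 library of rat R9875. For the age effect 0 members had such a p-value in the tests of CA1 less CA3, CA1 less DG and CA3 less DG (1.93%, 0.353% and 1.06% of all genes), nor did any for the maze effect of CA1 less DG and CA3 less DG (3.48% and 1.84%). EdgeR also gave 0 members in these 5 tests, and with DESeq2 1 member had one for the maze effect of CA1 less DG. With WT reads 7 of 78 members had one for that effect (1021 of 13653 genes) and 2 for that of CA3 less DG (363). The age effects of CA1 less DG and CA3 less DG then had 1 member each (201 and 271 of 13655 genes). For the maze effect of CA1 less CA3, 5 members had one with the replicate block (916 of 14186 genes) and 6 with quantile normalisation (711). The age effect of CA1 less CA3 had 1 with each (453 and 272 of 14179).

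**Figure D4:**
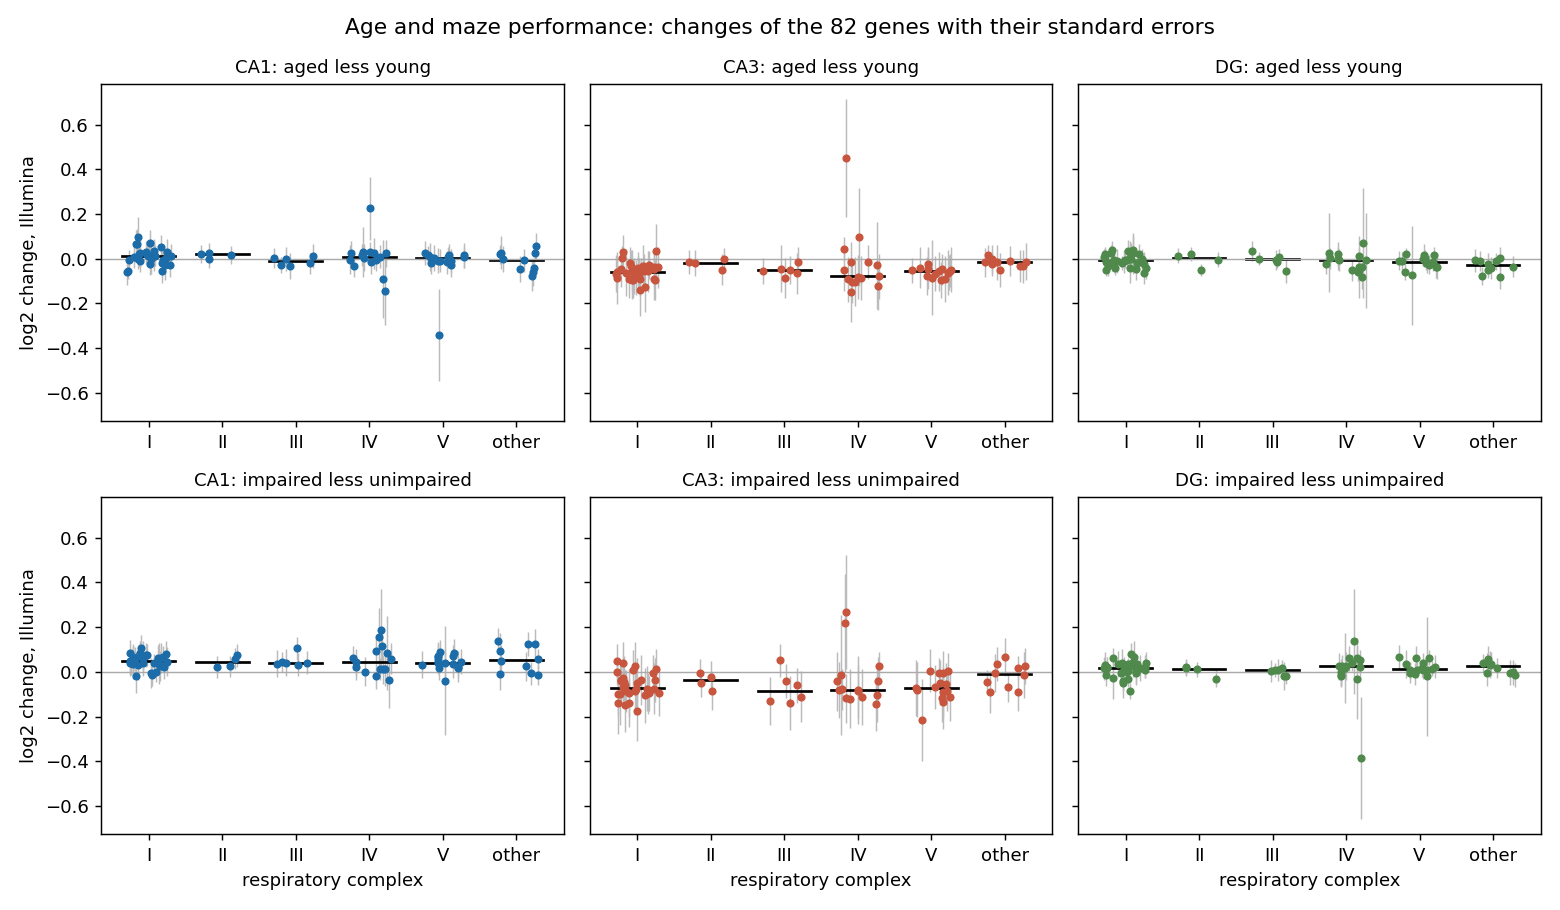
Log2 change of the 82 genes in the Illumina table by respiratory complex, with SE as lines and a bar at the median of a complex, for aged less young (upper row) and aged impaired less aged unimpaired rats (lower row). Complex medians lie between −0.09 and 0.05, and the points far from 0 are low genes such as Cox4i2 in CA3 (0.45) and Atp5hl1 in CA1 (−0.34).

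Within a table the subunits moved together from library to library, to different degrees. Each library was described by the mean deviation of 72 subunit genes from their means over the libraries of the same subfield and rat group. On the Illumina the CA3 library of aged impaired rat R9875 lay at −0.88, with 69 of 72 subunits below the group mean. It was the shallowest library (3.25 M reads) and among those nearest to another subfield, and on the Ion Proton the same piece lay at 0.02. The CA1 library of aged impaired rat R1931 lay at 0.39 on the Illumina and 0.51 on the Ion Proton, and at 0.04 in the WT table. The CA3 library of that rat lay at 0.11 on the Illumina and −0.81 on the Ion Proton. All other Illumina libraries lay between −0.23 and 0.24.

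**Figure D5:**
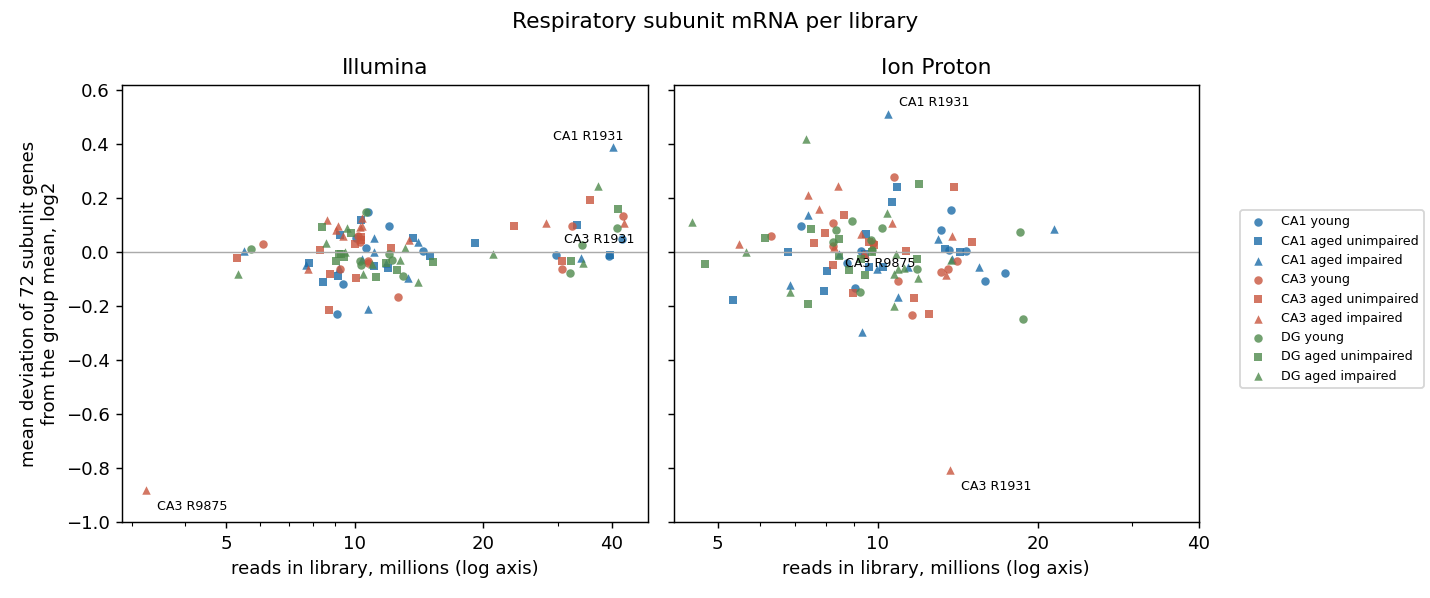
Mean deviation of 72 subunit genes from their group mean (log2, y axis) against the reads of the library (M, log x axis) in the Illumina and the Ion Proton table, with a mark for each library. The CA3 library of rat R9875 lies at −0.88 in the Illumina panel and at 0.02 in the Ion Proton panel, where the CA3 library of rat R1931 lies at −0.81.

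Pairs of subunits correlated with a median r of 0.71 over all Illumina libraries, 0.40 over the WT libraries and 0.18 over the Ion Proton libraries. These correlations are descriptive, since all genes of a library share its depth and quality. Without the CA3 library of rat R9875 the Illumina median was 0.56, and the first principal component held 34.7% of the variance of the members in place of 48.1%. On the Illumina the median r was 0.72 within a complex and 0.71 between complexes, and 0.44 between subunits and the other factors. The median SD of a member over all libraries was 0.16 on the Illumina, 0.31 on the Ion Proton and 0.15 in the WT table, beside 0.21, 0.42 and 0.22 over all genes. The lowest SD values on the Illumina were those of Sdhaf2 (0.10), an assembly factor of complex II, Ndufs4 (0.10) and Sdhc (0.10).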

How the data were processed

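RNA of CA1, CA3 and DG from 34 rats had been sequenced on 2 instruments. The authors deposited gene counts divided by a size factor per library, so that each table holds normalised signal. Per the submitters' processing notes, Illumina reads passed through bcl2fastq 2.17, cutadapt 1.8.3, STAR 2.5, featureCounts 1.4.4 and DESeq2 1.16.1 on rn5, and the methods name TopHat2 and Bowtie2 for the Ion Proton. The aligner and library type of the WT table are not given in the sources used here, nor is whether counting used strand, for which labels and methods name different kits.

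Whole reads were recovered for 100% of the values in all 3 tables (tolerance 0.01). The main test was limma 3.58.1 in R 4.3.3 (trend, two-sided) on log2(signal + 1) over genes whose mean signal in the libraries compared reached 10, with Benjamini-Hochberg adjustment over all genes tested. Subfield calls needed an adjusted p-value under 0.05 and 1 direction in both poly-A tables. For age and maze class, genes with a p-value under 0.01 on the Illumina were retested one-sided on the Ion Proton at 0.05. Interaction terms compared these effects between subfields. Alternatives were edgeR 4.0.16 and DESeq2 1.42.0 on the recovered reads, other scaling, filter, pseudocount and table, a number series term, a replicate block and the removal of libraries. The tests were tested on simulated data. Low counts limit the precision for genes such as Cox6b2, and intervals cover the spread between rats.

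Groups came from the labels. Subfields of 1 rat share the animal, which is where the pairing comes from. The main subfield and interaction fits held no rat term and so treated the libraries of a rat as independent. The replicate block on the rat was run as an alternative only. Deviations from the group mean correlated between subfields of the same rat with a median r of 0.05 (CA1 and CA3), 0.24 (CA1 and DG) and 0.00 (CA3 and DG) on the Illumina. Named genes were the isoform pairs and the catalytic subunits, the called members, and for age and maze class the 2 members with the lowest p-value. Members of other complexes that passed in 1 table, those with opposite signs, those under the filter and those apart between tables were chosen after their values were seen. A called gene that stays in the counts is not reported here. The members and lists were chosen with earlier results of these data known.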

Additional observations from a re-analysis of the deposited data

Results flagged for a closer look

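Of 72 groups of young libraries tested for a library far from the others on the Illumina (log2 scale), 5 had one, and chance gives about 1 in 20. In young CA1 the library of rat R9877 was the lowest for Atp5g1 (954.8 normalised reads, others 1147 to 1333), Ndufa4 (2039, others 2438 to 2881) and Uqcrfs1 (1295, others 1434 to 1559). In young DG the library of rat R2175 was the highest for Atp5a1 (10220 normalised reads, others 8249 to 9083) and Ndufs8 (751.9, others 562 to 655).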

How the results depend on the processing

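The number of members called between CA1 and CA3 was 1, beside 14.4% of all genes. Percentages in this paragraph are shares of all genes called under the same setting. The number was 2 with quantile normalisation (15.3%), 6 with edgeR (15.5%) and 6 with DESeq2 (16.6%). The WT table in place of the Illumina table gave 4 (13.2%) and a replicate block on the rat 2 (16.1%). The count was 3 in the rats below 9000 (21.8%) and 0 in those from 9000 up (3.95%). It was 4 without the 7 deeply sequenced rats (11.9%) and 5 without the libraries nearest to another subfield (16.6%). Without the CA3 library of rat R9875 it was 6 (15.5%) and without the CA1 and CA3 libraries of rat R1931 it was 4 (15.1%). Both removals were chosen after seeing the data. Between CA1 and DG the count of 4 (26.9%) became 2 in the rats below 9000 (15.7%), both higher in CA1. It became 5 in those from 9000 up (20.9%), all lower in CA1. Between CA3 and DG the count of 2 (28.5%) became 1 with the WT table (27%) and 0 in the rats below 9000 (23.4%). It was 5 without the deeply sequenced rats (28.3%) and 4 without the libraries nearest to another subfield (31.6%). Without the libraries of rat R1931 it was 5 (32.1%). The cause was not tested. In the rats below 9000, 55 members had an unadjusted limma p-value under 0.05 between CA3 and DG on the Illumina, so that the loss there was on the Ion Proton. With the replicate block on the rat the counts for CA1 against DG and CA3 against DG were 5 (29.8%) and 3 (31.4%). Counts for age, maze class and the interactions stayed at 0 retested or adjusted members in every alternative run, and 0 results changed sign while called.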
